A study of Mus musculus with 4 samples.

Results

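Plasmacytoid dendritic cells (pDCs) were represented by 151 of the 10841 cell barcodes kept, or 1.39%. A barcode was taken as a pDC when it had at least 1 UMI (a count of 1 tagged RNA molecule) of Siglech and at least 2 of the 6 further genes Ccr9, Klk1, Cox6a2, Pacsin1, Ly6d and Atp1b1, within limits on C1q, microglial, T cell and B cell genes that remove mixed cells.

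The pDC is a rare kind of dendritic cell specialised in sensing nucleic acids and in releasing type I interferon. It detects viral or self RNA and DNA in endosomes through the receptors TLR7 and TLR9, and the transcription factor IRF7 then drives the interferon genes. Its identity is set by the transcription factor TCF4 (E2-2), together with SPIB, BCL11A and RUNX2, and mouse pDCs carry the surface receptors SIGLECH, BST2 and CCR9. Type I interferon acts back on its own and neighbouring cells through the receptor IFNAR and induces a broad set of interferon-stimulated genes.

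The pDCs described here came from single-cell RNA profiles of leukocytes from the stroke-injured hemisphere of C57/BL6 mice. All mice underwent tMCAO (transient middle cerebral artery occlusion), in which blood flow through a large brain artery is stopped for a time and then restored. Hemispheres were taken 14 or 5 days later, and cells with high surface CD45, a protein of leukocytes, were sorted for droplet sequencing with 10x Genomics 3' v2 chemistry. There were 2 libraries per day, and the labels name no other treatment, no age and no group without tMCAO. Since it is not stated how many mice a library pools, a p-value here reflects only how far libraries of 1 day lay apart, which may be technical. In all, 10841 of 10925 barcodes were kept, with at least 200 genes detected and at most 10% mitochondrial counts. Day 14 contributed 2580 and 2308 of them and day 5 contributed 2506 and 3447. Total UMI counts per library ranged from 9288054 to 13610119. Between 5 and 16 barcodes were shared by any pair of libraries.

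The pDCs were spread over all libraries, 86 from day 14 and 65 from day 5. Library by library, day 14 gave 52 and 34 pDCs and day 5 gave 21 and 44. One pDC barcode occurred in both day 14 libraries, with 1709 genes in library 1 and 1987 in library 2, of which 798 were detected in both. The median pDC held 4302 and 4475 UMIs on day 14 and 3759 and 2957 on day 5, and every pDC held at least 1000.

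The pDCs were chosen by their measured UMIs of the gate genes, whose levels are therefore given as a description, with no test. Siglech, an inhibitory surface receptor, stood at 1746 and 1260 CPM (UMIs scaled to a common library total) in the pDCs of the day 14 libraries, against 2212 and 1845 CPM in those of the day 5 libraries. Ly6d, a surface protein of early lymphoid cells, was the highest of the further genes, at 3255 and 2309 CPM on day 14 and 2999 and 3532 CPM on day 5. Ccr9, a receptor for the chemokine CCL25, stood at 774 and 883 CPM on day 14 and 962 and 897 CPM on day 5. Klk1, a kallikrein protease, varied most among the further genes, at 393 and 185 CPM on day 14 and 75 and 323 CPM on day 5. Just inside the gate, 13 pDCs carried exactly 2 further genes, with a median of 2 Siglech UMIs and Tcf4 detected in 100% of them. The transcription factor gene Irf8 was detected in 8 of these 13, against 19 of the 20 pDCs with exactly 3 further genes. Of the 13, day 14 library 1 held 3, day 14 library 2 held 7, day 5 library 1 held 0 and day 5 library 2 held 3. Outside the gate, 30 barcodes within the limits had Siglech and exactly 1 further gene, with a median of 1 Siglech UMI and Tcf4 in 70.0%. Irf8 was detected in 15 of these 30. Microglia also carried Siglech, at 303 and 224 CPM on day 14 and 234 and 325 CPM on day 5. The limits on mixed cells removed 69 of 220 barcodes that had the pDC genes, 61 of them over the C1q limit.

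Genes that the gate did not use are also known from pDCs, and their levels are given here with no test. Bst2, which tethers enveloped viruses and marks mouse pDCs, was detected in all 151 cells at 4452 and 4247 CPM on day 14 and 4049 and 3905 CPM on day 5. Tcf4 was detected in 144 of the 151, at 817 and 825 CPM on day 14 and 662 and 926 CPM on day 5. Irf8, a transcription factor that pDCs share with type 1 conventional dendritic cells (cDC1s), was detected in 145, at 3657 and 3339 CPM on day 14 and 4348 and 4314 CPM on day 5. Bcl11a lay between 275 and 435 CPM, Runx2 between 205 and 409 CPM, and Spib between 212 and 345 CPM over the 4 libraries. Of 18 listed pDC markers outside the gate, 17 were detected. The exception was Tlr9, the endosomal DNA receptor, with no UMI in any pDC and 3 to 11 UMIs in each whole library. Tlr7, the RNA receptor, was detected at 73 to 112 CPM.

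Markers of other cells were not all absent in the pDCs. The gate itself limits the C1q, microglial, T cell and B cell genes, Ms4a1 among them, so their low levels are in part set by it. Of 9 conventional dendritic cell markers, Xcr1, which defines cDC1s, and Snx22 were at 0, and the sum of the 9 was 450 and 742 CPM on day 14 and 575 and 531 CPM on day 5. Most of that sum was Cd209a, a lectin known from other dendritic cells, with a UMI in 72 of the 151 pDCs. Zbtb46 or Axl, also known from other dendritic cells, had a UMI in 0 of 52 and 8 of 34 pDCs on day 14. On day 5 they had one in 0 of 21 and 2 of 44. The summed level of 5 plasma cell markers was 424 and 441 CPM on day 14 and 650 and 596 CPM on day 5, with none at 0. Also at 0 were the B cell genes Ms4a1 and Pax5 and the NK cell genes Ncr1 and Klrb1c. The summed level of 10 microglial markers was 631 and 563 CPM on day 14 and 975 and 869 CPM on day 5, and none of these markers was at 0. The summed level of 9 macrophage and monocyte markers was 2563 and 3434 CPM on day 14 and 2812 and 4824 CPM on day 5, with Pf4 at 0. Lyz2, the macrophage and neutrophil lysozyme, and Apoe, a lipid carrier abundant in microglia, gave most of it. Single barcodes carried 50% or more of the Lyz2: the top barcode of each library held 71.1% and 82.5% of its pDC Lyz2 UMIs on day 14 and 73.5% and 50.1% on day 5. There were 7 pDC barcodes with 20 or more Lyz2 UMIs, and the others averaged 238 and 339 CPM on day 14 and 293 and 262 CPM on day 5. The 7 barcodes also held 2 to 12 Siglech UMIs each. The sum of 5 neutrophil markers was 229 and 51.2 CPM on day 14 and 12.5 and 2433 CPM on day 5. Day 5 library 2 thus stood apart, and 114 of its 205 S100a8 UMIs lay in 1 barcode.

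**Figure D1:**
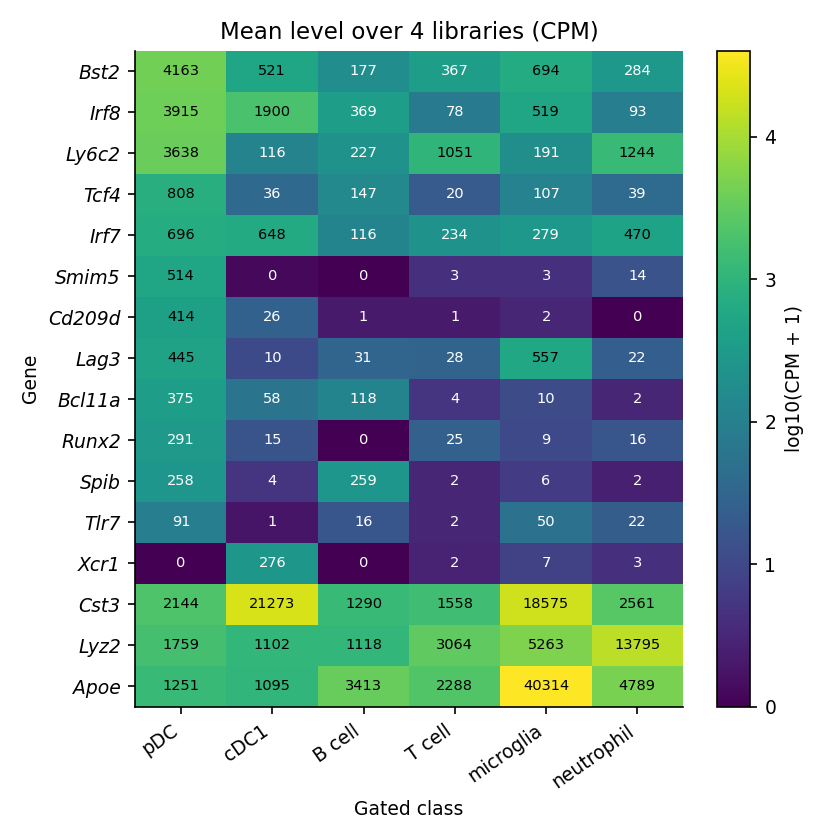
Mean level in CPM over the 4 libraries of 16 genes (rows) in pDCs and in the other gated cell classes (columns), with the colour on a log10(CPM + 1) scale. None of the genes was used by the pDC gate. Bst2, Tcf4, Smim5, Cd209d and Runx2 read highest in the pDC column, Spib about equally in pDCs and B cells, and Lag3 also in microglia. Xcr1 read highest in the cDC1 column, which is set in part by the cDC1 gate, since that gate uses Xcr1.

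The share of pDCs among the barcodes kept was higher in both day 14 libraries than in both day 5 libraries, a difference that 4 libraries cannot carry past the threshold. It was 2.02% (exact 95% interval 1.51% to 2.63%) and 1.47% (1.02% to 2.05%) on day 14. On day 5 it was 0.838%, with an interval of 0.519% to 1.28%, and 1.28%, with an interval of 0.929% to 1.71%. The intervals cover counting error only. The barcodes were deposited already called as cells, and the matrix headers differ between the days, as described below. For these shares the day and the upstream processing therefore cannot be told apart. The means were 1.74% ± 0.384 on day 14 and 1.06% ± 0.310 on day 5 (SD, n = 2 each), a difference of 0.687 percentage points. The difference had p = 0.3333 in a two-sided exact permutation test, the smallest p that 2 against 2 libraries can give. Barcodes gated as microglia numbered 182 and 86 on day 14 and 713 and 1374 on day 5, and with them left out of the denominator the shares were 2.17% and 1.53% on day 14 and 1.17% and 2.12% on day 5, which overlap (p = 0.667, exact permutation test). Thinning every barcode to 1000 UMIs before the gate gave overlapping shares of 1.71% and 0.910% on day 14 and 0.735% and 0.962% on day 5.

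**Figure D2:**
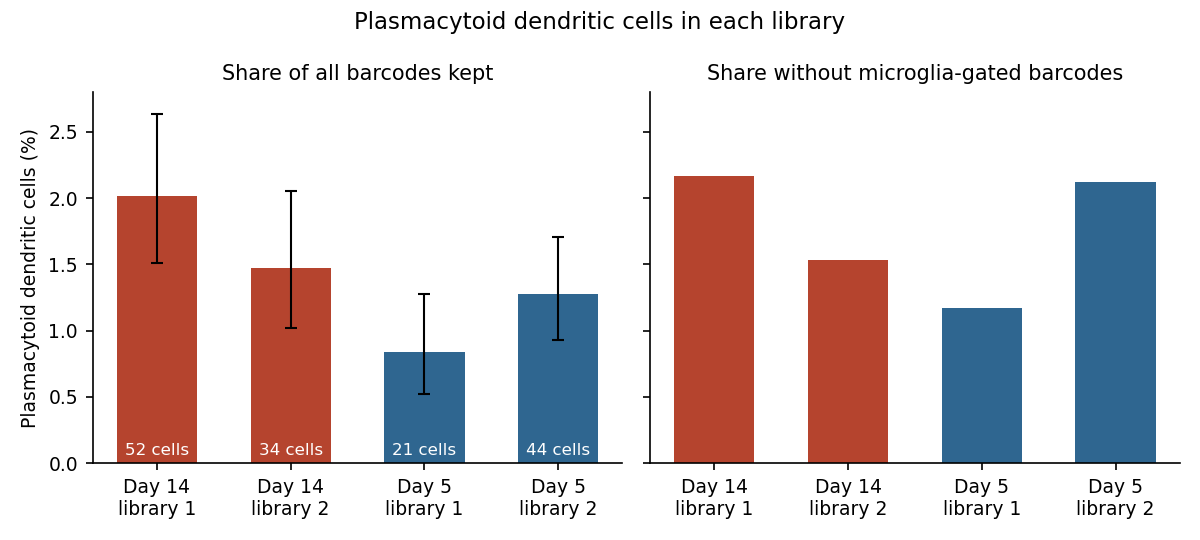
Share of pDCs in each library, in percent, among all barcodes kept (left, with exact 95% binomial intervals and the number of pDCs) and among barcodes outside the microglia gate (right). Of all barcodes, both day 14 libraries lie above both day 5 libraries, at 2.02% and 1.47% against 0.838% and 1.28%; without microglia the days overlap.

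No interferon message was seen in the pDCs. The 20 type I and type III interferon genes listed had 0 UMIs in 151 pDCs, which allows a share of up to 1.99% of pDCs with a UMI. Over all 10841 barcodes kept, 11 had an interferon UMI, from Ifnb1, Ifnk and Ifnz. The interferon receptor subunit gene Ifnar2 was detected at 531 and 312 CPM on day 14 and 504 and 463 CPM on day 5. These CPM values, and those of every fitted gene below, use library sizes over the tested genes scaled by TMM (trimmed mean of M-values), and so run above the plain CPM given so far. Ifnar2 overlapped between the days and did not pass the test of day 14 against day 5 described next (log2 change -0.17 ± 0.30 SE, adjusted p = 0.943, edgeR).

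Interferon-stimulated genes were higher in the pDCs of day 14 than in those of day 5. The UMIs of the pDCs were summed per library and day 14 was set against day 5 with edgeR's quasi-likelihood test, with Benjamini-Hochberg adjusted p-values over all genes tested and a threshold of 0.05. The day 5 matrices carry a software version in their headers and those of day 14 carry none, so for every gene compared here the day and the upstream processing cannot be told apart. Of 2333 genes tested outside the gate, 24 were called (1.03%), 22 higher on day 14 (0.943%) and 2 lower (0.0857%). At an unadjusted p under 0.05 there were 201 (8.62%), and libraries of the days did not overlap for 906 (38.8%), with day 14 above for 442 (18.9%) and below for 464 (19.9%). Of 59 listed interferon-stimulated genes, 58 were found in the files, 25 passed the filter on low counts, and 5 of these rose: Irf7, Isg15, Usp18, Ifi209 and Ly6a. At an unadjusted p under 0.05, 16 of the 25 were higher, against 5.1% of all genes tested, and 21 had both day 14 libraries above both day 5 libraries. By direction alone, 24 of the 25 had a positive log2 change, with a median of 1.40 against -0.0012 for all genes. The filter keeps genes that are high on either day, so the unfiltered sum is given too: all 58 genes together held 17065 and 23670 CPM in day 14 pDCs and 11571 and 11392 CPM in day 5 pDCs. In the 33 list genes that the filter removed, the summed level was 882 and 1254 CPM on day 14 and 262 and 323 CPM on day 5.

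Irf7, the master regulator of the interferon response in pDCs (chromosome 7, 141262706 to 141266481, minus strand, GRCm38), stood at 1035 and 1591 CPM in day 14 pDCs, against 389 and 290 CPM in day 5 pDCs. Both day 14 libraries were well above both day 5 libraries. The log2 change was 1.97 ± 0.29 (SE, adjusted p = 0.013, edgeR). An Irf7 UMI was found in 78.8% and 94.1% of pDCs on day 14 and in 52.4% and 50% on day 5, and after thinning each cell to 1000 UMIs in 44.2% and 64.7% on day 14 and 19.0% and 27.3% on day 5. B cells of the same libraries had median depths of 1959 and 2194 UMIs on day 14, against 1411 and 1261 on day 5. Their shares with an Irf7 UMI were 16.7% and 17.9% on day 14, against 4.4% and 8.8% on day 5. Among B cells thinned to 1000 UMIs the days overlapped, at 10.2% and 5.1% on day 14 against 5.0% and 7.1% on day 5. For cDC1s the shares were near those of pDCs, at 81.5% and 94.3% on day 14 against 47.8% and 34.6% on day 5. Thinned cDC1s gave 38.5% and 60.7% on day 14 against 13.0% and 11.5% on day 5.

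Isg15 encodes a ubiquitin-like protein that is joined to other proteins during the interferon response. It stood at 567 and 860 CPM in day 14 pDCs and 187 and 190 CPM in day 5 pDCs (log2 change 1.90 ± 0.31 SE, adjusted p = 0.023, edgeR). Usp18, the protease that removes ISG15 and also dampens signalling from IFNAR, stood at 224 and 297 CPM on day 14 and 72.0 and 41.4 CPM on day 5. The log2 change of Usp18 was 2.26 ± 0.40 (SE, adjusted p = 0.037, edgeR). For both genes the days were apart in every library.

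The promoters of the listed interferon-stimulated genes were read as background on the list, and the sequences of 3 called genes are printed. The interferon-stimulated response element is the DNA motif that the STAT and IRF proteins bind, and its core was searched as GAAA, any 2 bases and GAAA again, on both strands of the 250 bases before the start site in the RefSeq promoter table (GRCm38.p6). A match was found for 21 of the 45 of them in the table (46.7%), for 4.70% of the 1830 tested genes in the table and for 3.46% of its 27025 genes. The list was made of genes known to be induced by interferon, so this share describes the list and not these cells or days. Usp18 and Ly6a, also called, had no window in the table. Isg15 held 3 overlapping matches, between 56 and 78 bases before its start, while the windows of Irf7 and Ifi209 held none of these letters in this order. The stretches are shown 5′ to 3′ on the gene's own strand, with matches in capitals and bases inside an annotated transcript left off: Isg15 at chr4:156200819-156200938 (minus strand), Irf7 at chr7:141266482-141266544 (minus strand) and Ifi209 at chr1:173630739-173630858 (plus strand).
Isg15: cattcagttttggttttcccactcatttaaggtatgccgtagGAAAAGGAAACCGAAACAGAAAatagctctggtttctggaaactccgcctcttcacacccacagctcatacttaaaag
Irf7: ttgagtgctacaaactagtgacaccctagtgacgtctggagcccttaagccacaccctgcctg
Ifi209: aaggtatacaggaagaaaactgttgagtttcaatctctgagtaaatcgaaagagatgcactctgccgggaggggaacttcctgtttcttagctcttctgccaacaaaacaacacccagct
A match describes letters and not a bound site, and the absence of one says nothing of a factor.

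Ly6a, the surface protein Sca-1, which interferon induces in many leukocytes, stood at 2971 and 4074 CPM in day 14 pDCs and 1585 and 1001 CPM in day 5 pDCs (log2 change 1.46 ± 0.24 SE, adjusted p = 0.024, edgeR). Its neighbour in the same gene family, Ly6c2, a surface marker of pDCs and monocytes from the pDC surface list, also rose. Ly6c2 held 5016 and 7767 CPM on day 14 and 2507 and 1944 CPM on day 5, a log2 change of 1.53 ± 0.22 (SE, adjusted p = 0.013, edgeR). A Ly6c2 UMI was present in 140 of the 151 pDCs. Of the last 500 bases of the Ly6c2 transcript, 20.6% of the 50-base windows also occur in another gene, Ly6c1 among others, and reads there cannot be assigned with certainty.

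Ifi209 and Ifi203 belong to the interferon-inducible p200 family on chromosome 1, whose members have DNA-binding or protein-interaction domains. Ifi209 stood at 182 and 267 CPM in day 14 pDCs and 28.8 and 49.6 CPM in day 5 pDCs, with a log2 change of 2.37 ± 0.44 (SE, adjusted p = 0.044, edgeR). Its 3' end is 63.4% shared with Ifi214, so the value may mix these 2 genes. Ifi203, named after its values were seen, was at 442 and 487 CPM on day 14 and 187 and 108 CPM on day 5, with a log2 change of 1.72 ± 0.33 (SE, adjusted p = 0.049, edgeR).

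**Figure D3:**
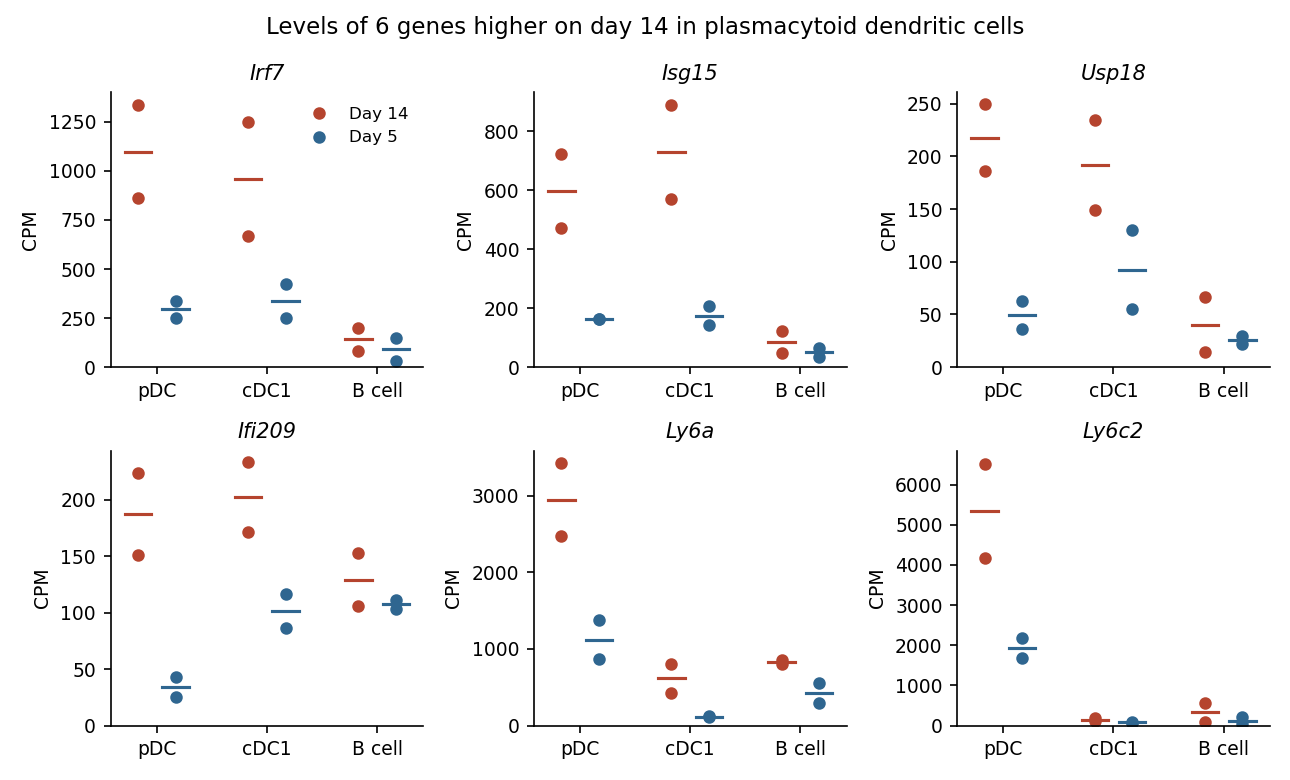
Plain CPM of 6 genes in pDCs and, for comparison, in cDC1s and B cells; each point is a library, red for day 14 and blue for day 5, and each bar the mean of 2 libraries. In pDCs both day 14 points lie above both day 5 points in every panel, and Ly6a and Ly6c2 within each day stand higher in pDCs than in the other classes shown.

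The interferon calls did not hold without the day 5 library that has more pDCs. Without day 5 replicate 2, which leaves 21 pDCs as the only day 5 library, 0 of the list's genes were called (edgeR), 15 had an unadjusted p under 0.05, and the changes stayed positive, with Irf7 at a log2 change of 1.74, Isg15 at 1.91, Usp18 at 1.82 and Ly6a at 1.15. The call for Ly6c2 was lost too, at 1.35. Without day 14 replicate 1 the list's count was 13. DESeq2 lost the calls for Usp18, Ifi209 and Ifi203, and thinning each pDC to 1000 UMIs lost those for Irf7 and Isg15, at log2 changes of 1.67 and 1.89, and for Ifi203, at 1.28. Stricter limits on mixed cells lost the calls for Ifi209, at 2.3, and Ifi203, at 1.72. The call for Ifi209 was also lost without day 5 replicate 1, and without the pDCs with S100a8 or S100a9 or with 20 or more Lyz2 UMIs, and those for Usp18 and Ifi203 with shared 3' ends left out before the fit. Over all genes, 118 were called without day 14 replicate 1, 41 without day 14 replicate 2, 37 without day 5 replicate 1 and 11 without day 5 replicate 2.

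The summed interferon-stimulated list was also higher on day 14 in cDC1s, microglia, neutrophils and T cells, in both libraries, while in B cells the days overlapped, at 5430 and 8796 CPM on day 14 and 5278 and 5515 CPM on day 5. Its summed level over 58 genes averaged 20368 CPM in day 14 pDCs and 11482 CPM in day 5 pDCs, a ratio of 1.77. The ratio of day 14 to day 5 was 2.04 in cDC1s, 2.06 in microglia, 3.96 in neutrophils, 1.55 in T cells and 1.32 in B cells. The list includes the abundant pDC marker Bst2, whose log2 change in pDCs was 0.18, so the pDC ratio leans on that gene. The median log2 change of the list genes tested in each class was 1.40 in pDCs, 1.16 in cDC1s and 1.26 in microglia. It was 2.14 in neutrophils, 0.69 in T cells and 0.13 in B cells. Of the list's tested genes, 5 of 25 rose in pDCs. For the other classes the share of all genes called in that class, in either direction, stands in brackets. In cDC1s 7 of 39 rose (1.29%), and in microglia 51 of 57 rose (6.31%) and 2 were called lower. In neutrophils 40 of 47 rose (18.7%), in T cells 3 of 55 (0.435%) and in B cells 0 of 19 (1.03%). Of the 19 in B cells, 3 were higher at an unadjusted p under 0.05 (edgeR), and 12 had a positive log2 change. Free RNA from other cells was not tested as a part of the change in pDCs. For Irf7, plain CPM in the same libraries was 860 and 1337 in pDCs and 314 and 577 in microglia on day 14, and 337 and 251 in pDCs and 119 and 107 in microglia on day 5.

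Whether the day effect differed between pDCs and another class was tested as a class by day term with the library as a block. Against 236 cDC1s, 0 of 2763 genes were called (0.00%) by edgeR, with 163 at an unadjusted p under 0.05 (5.9%). The difference of the Irf7 log2 changes, pDCs minus cDC1s, was 0.48 ± 0.36 (SE, adjusted p = 0.92, edgeR), and that of Isg15 was -0.17 ± 0.36 (adjusted p = 0.988). Against 366 B cells, 1 of 2721 genes was called (0.0368%), with 270 at an unadjusted p under 0.05 (9.92%). It was Ifitm3, an antiviral membrane protein induced by interferon. Ifitm3 stood at 695 and 2284 CPM in pDCs and 152 and 695 CPM in B cells on day 14, and at 148 and 568 CPM in pDCs and 256 and 853 CPM in B cells on day 5. The change in pDCs exceeded that in B cells by 2.57 ± 0.32 on the log2 scale (SE, adjusted p = 0.019, edgeR). Within both classes and on both days library 2 was the higher one, and within pDCs alone Ifitm3 did not pass (log2 change 1.95 ± 0.61 SE, adjusted p = 0.359, edgeR). Under stricter limits on mixed cells the Ifitm3 difference was -0.31.

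Slpi and Ldhb fell in the pDCs of day 14. Slpi, a secreted inhibitor of leukocyte proteases, stood at 151 and 76.1 CPM in day 14 pDCs, against 778 and 463 CPM in day 5 pDCs (log2 change -2.35 ± 0.39 SE, adjusted p = 0.024, edgeR). Slpi was found in 17 of 52 and 5 of 34 pDCs on day 14 and in 10 of 21 and 15 of 44 on day 5. Neutrophils of the same libraries held more of it, at plain CPM of 1399 and 1993 on day 14 and 1354 and 1127 on day 5. Day 5 library 1, which had the highest Slpi in pDCs, had the lowest sum of neutrophil markers there, at 12.5 CPM. In that library 17 of the 54 Slpi UMIs lay in 1 pDC. Whether neutrophil RNA contributed to the Slpi of pDCs was not tested. Slpi was also lower on day 14 in B cells without passing (log2 change -2.68 ± 0.51 SE, adjusted p = 0.051, edgeR). Its log2 change was -1.45 in T cells, -0.15 in microglia and 0.18 in neutrophils, with no call. Ldhb, the lactate dehydrogenase subunit common in oxidative tissues, stood at 52.0 and 60.9 CPM on day 14 and 274 and 232 CPM on day 5 (log2 change -2.14 ± 0.34 SE, adjusted p = 0.021, edgeR). Of the 50-base windows in the last 500 bases of Ldhb, 24.4% also occur in another gene. Ldhb was also lower on day 14 in microglia (log2 change -0.42 ± 0.11 SE, adjusted p = 0.041, edgeR). In T cells it was lower without passing (-1.75 ± 0.48 SE, adjusted p = 0.223, edgeR), and the other classes did not test it. The call for Ldhb was lost without day 5 replicate 2, at a log2 change of -2.27, with DESeq2, and with pDCs of 20 or more Lyz2 UMIs left out, at -1.93. That for Slpi was lost under stricter limits on mixed cells, at -1.86, and with pDCs thinned to 1000 UMIs, at -2.27.

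The largest rises belonged to genes whose 3' ends are shared with other genes, many of them processed copies. Over 50% of the 50-base windows in the last 500 bases occurred in another gene for 107 of the genes tested, of which 13 were called (12.1%), all higher on day 14. Of the 2226 other genes, 11 were called (0.494%). Gm11361, 86.3% of whose 3' end is shared, with the ribosomal protein gene Rps18 among others, had 96 and 52 UMIs in day 14 pDCs and 0 and 0 in day 5 pDCs. Against a floor of 3 UMIs over the day 5 libraries it was at least 27.9-fold higher. Gm9493, shared with Rps7, was at least 15.5-fold higher. The others were Gm10073, Gm8797, Gm8186, Ftl1-ps1, Ifi209 and 6 ribosomal protein copies such as Rpl9-ps6 and Rps12-ps3. All 13 genes were also higher on day 14 in every other class in which they were tested, and all 13 were called higher in microglia.

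**Figure D4:**
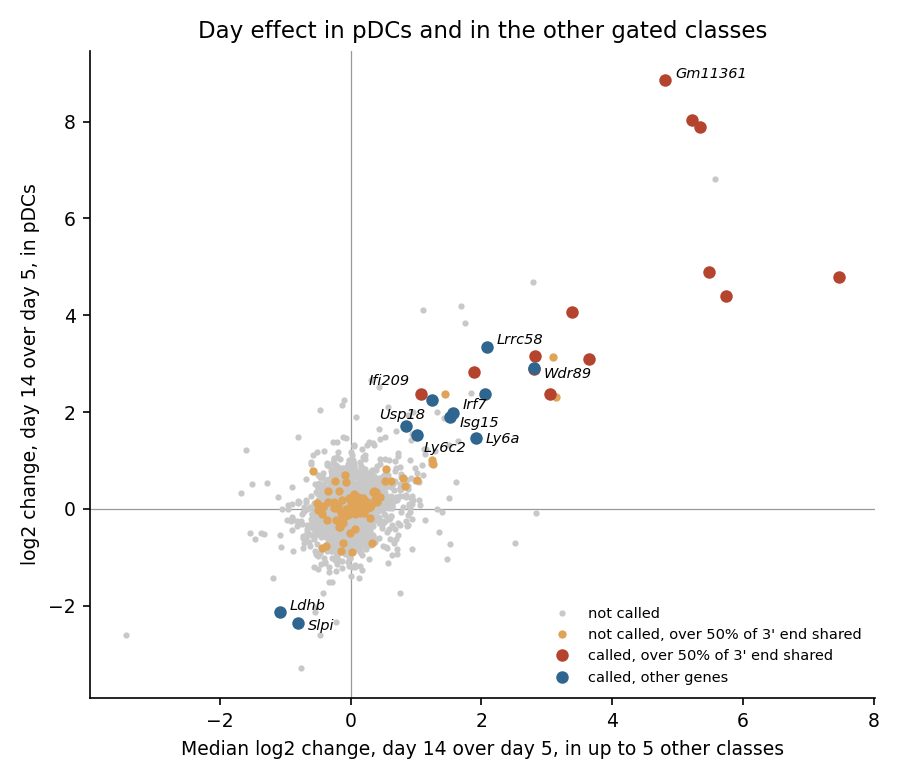
Log2 change between day 14 and day 5 in pDCs (vertical axis) against the median log2 change in up to 5 other gated classes (horizontal axis), 1 point per tested gene. Called genes with over 50% of the 3' end shared (red) lie mostly to the upper right, and the called interferon genes other than Ifi209 (blue) lie nearer the bulk, at a pDC change of 1.46 for Ly6a to 2.26 for Usp18.

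Several called genes had less shared sequence. Wdr89, a little-studied WD-repeat gene with 31.0% of its 3' end shared, with Rplp2 among others, stood at 1342 and 1325 CPM in day 14 pDCs and 144 and 199 CPM in day 5 pDCs (log2 change 2.91 ± 0.25 SE, adjusted p = 0.0019, edgeR). Its change was between 2.36 and 2.95 in the other 5 classes. Lrrc58, a leucine-rich repeat gene, held 182 and 152 CPM on day 14 and 14.4 and 16.5 CPM on day 5 (log2 change 3.35 ± 0.51 SE, adjusted p = 0.018, edgeR), and its log2 change was 1.6 to 2.3 in the 4 other classes where it was tested. None of the 3' end of Lrrc58 is shared, but 9.31% of the 3' end windows of Actb, the abundant actin gene, occur in a Lrrc58 transcript. The call for Lrrc58 was lost without day 5 replicate 2 and with DESeq2. Tpm3-rs7, a copy of a tropomyosin gene with 48.1% shared, had a log2 change of 2.36, and its call was lost without either day 5 library, at 2.33 and 2.49, with DESeq2, at 2.40, without the pDCs with S100a8 or S100a9 or with 20 or more Lyz2 UMIs, and with shared 3' ends left out before the fit.

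Of the genes of the pDC program, Irf7 and Ly6c2 were the calls between the days, and neither rise was confined to pDCs. Both were also called higher in microglia, at log2 changes of 2.04 for Irf7 and 2.12 for Ly6c2 (edgeR). Irf7 was also called in neutrophils (2.75) and Ly6c2 in T cells (0.98). In cDC1s and B cells neither was called. Of 15 transcription factors of pDC identity, 11 were tested and only Irf7 rose, where 0.943% of all genes tested rose, with a median log2 change of -0.21. The summed level of the 15 was 7024 and 7246 CPM on day 14 and 6960 and 7580 CPM on day 5. Irf8 stood at 4402 and 3975 CPM on day 14 and 5014 and 4972 CPM on day 5 (log2 change -0.25 ± 0.13 SE, adjusted p = 0.636, edgeR). Of 20 surface and signalling genes, 18 were tested and only Ly6c2 rose. Tyrobp, the adaptor that carries the signal of SIGLECH, was the highest that did not pass, at 6822 and 6625 CPM on day 14 and 6052 and 6288 CPM on day 5. Of 28 nucleic acid sensing genes, 10 were tested, and Irf7 was again the only call. Pld4, an exonuclease that limits TLR9 ligands in endosomes, stood at 1447 and 1104 CPM on day 14 and 1816 and 1680 CPM on day 5 (log2 change -0.45 ± 0.19 SE, adjusted p = 0.571, edgeR).

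Antigen presentation genes were mostly somewhat higher on day 14 without passing the test. All 7 tested MHC class II genes had a positive log2 change, with a median of 0.25, where 49.9% of all genes tested had one. By edgeR and by DESeq2 0 were called, and 2 were higher at an unadjusted p under 0.05, against 5.1% of all genes. The summed level of the 10 listed was 13598 and 14876 CPM on day 14 and 11683 and 12878 CPM on day 5. Cd74, the invariant chain, had a log2 change of 0.17 ± 0.11 (SE, adjusted p = 0.729, edgeR). Of 18 tested MHC class I genes, 14 were higher (49.9% of all genes), 6 of them at an unadjusted p under 0.05 (5.1% of all genes), and 0 were called by edgeR or DESeq2, with a median of 0.48. B2m, the shared light chain, stood at 7071 and 7744 CPM on day 14 and 5331 and 5080 CPM on day 5 (log2 change 0.51 ± 0.12 SE, adjusted p = 0.149, edgeR). Both day 14 libraries were above both day 5 libraries.

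The remaining lists gave no call with edgeR or DESeq2. Of 31 tested endoplasmic reticulum and secretion genes, 23 had a negative log2 change, with a median of -0.19 and 2 lower at an unadjusted p under 0.05, against 3.51% of all genes. Sec61g, a subunit of the protein translocation channel, was the highest of them, at 1806 and 1218 CPM on day 14 and 1628 and 1522 CPM on day 5. Of 15 tested migration and adhesion genes the median was -0.19, with 1 higher and 1 lower at an unadjusted p under 0.05, against 8.62% of all genes in either direction. Selplg, a ligand of selectins, overlapped between the days at 1171 and 1393 CPM on day 14 and 1254 and 1382 CPM on day 5. Of 7 tested secreted effectors, 5 were lower, 1 of them at an unadjusted p under 0.05, and the chemokine gene Ccl4 overlapped at 3195 and 1767 CPM on day 14 and 1945 and 4592 CPM on day 5. Of 20 costimulation and maturation genes 1 passed the filter, Socs3, a feedback inhibitor of cytokine signalling, with a log2 change of -0.48 ± 0.34 (SE, adjusted p = 0.737, edgeR). Medians were 0.01 for 16 immediate early and stress genes (Hspa8, a chaperone, 0.52), 1 of which was lower at an unadjusted p under 0.05, -0.08 for 8 glycolysis and hypoxia genes (Gapdh 0.61), 0.45 for 5 survival genes (Mcl1 -0.08), -0.03 for 5 transitional dendritic cell genes (Lyz2 -0.24, but -2.49 and called under stricter limits on mixed cells) and -0.08 for 3 cell cycle genes (Tubb5 -0.08). The proliferation genes Mki67 or Top2a had a UMI in 4 of 52 and 1 of 34 pDCs on day 14 and in 0 of 21 and 0 of 44 on day 5.

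**Figure D5:**
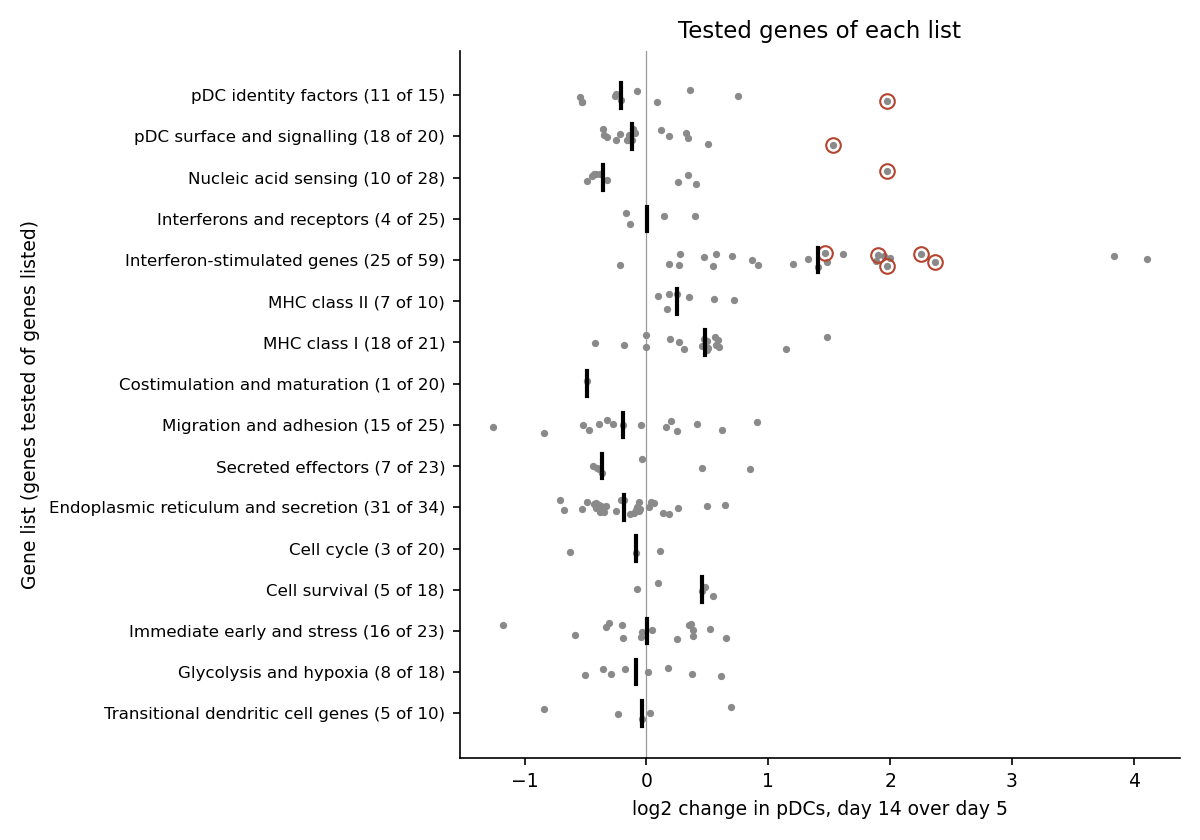
Log2 change between day 14 and day 5 in pDCs for the tested genes of 16 lists (grey points; the vertical jitter carries no meaning), with called genes circled in red and the list's median as a black bar. The interferon-stimulated genes are centred at 1.40, the MHC class I genes at 0.48, and the other lists between -0.48 and 0.45.

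Secretin and apolipoprotein D, named after their values were seen, were high in part of the day 14 pDCs. Sct, the peptide hormone secretin, had 43 and 89 UMIs in day 14 pDCs, in 11 of 52 and 12 of 34 cells, and 3 and 0 UMIs in day 5 pDCs, in 2 of 21 and 0 of 44 cells. Sct did not pass (log2 change 4.69 ± 0.93 SE, adjusted p = 0.064, edgeR), while with no filter on low counts it did, at 4.75, and with DESeq2 it did not, at 4.50. Among the other classes it was above 4 CPM only in cDC1s, at 51.2 and 127 CPM on day 14 and 14.4 and 13.7 CPM on day 5. Apod, a lipid-binding secreted protein, had 17 and 87 UMIs on day 14 and 1 and 5 UMIs on day 5, with an adjusted p of 0.358 (edgeR). An Apod UMI was found in 9 of 52 and 17 of 34 pDCs on day 14 and in 1 of 21 and 2 of 44 on day 5. In cDC1s it was found in 4 of 65 and 13 of 122 cells on day 14 and in 0 of 23 and 0 of 26 on day 5. The difference of the Apod log2 changes, pDCs minus cDC1s, was -1.22 ± 1.91 (SE, adjusted p = 0.973, edgeR).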

How the data were processed

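The authors deposited raw UMI counts per gene and cell barcode for 4 libraries (31053 genes), with barcodes already called as cells. The tools named are Cell Ranger 3.0.1 and Seurat 2.3.4, with GRCm38 (mm10) as build, per the submitters' processing notes. Version 3.0.1 also stands in the matrices of day 5 and no version in those of day 14, per the file headers. No doublet caller was run; the gate limits other cell types' genes (C1q genes under 10 UMIs, P2ry12, Tmem119 and Gpr34 together under 4, T cell genes under 3, B cell genes under 5) but sets none on neutrophil or monocyte genes.

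From these counts, pDC UMIs were summed per library and tested with edgeR 4.0.16 in R 4.3.3 (filterByExpr, TMM, quasi-likelihood test, day as the only term). DESeq2 1.42.0 was an alternative. Standard errors were taken from the F statistic. Tests were tried on simulated data first. Shares were compared by exact permutation over libraries (Python 3.11.15, scipy 1.17.1), with exact Clopper-Pearson intervals. Other classes were gated: cDC1s by Xcr1 or Clec9a and at least 2 of 6 genes, B cells by at least 5 UMIs of Cd79a, Cd79b and Ms4a1, every class but microglia without Siglech.

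Of 31053 genes, 30934 matched GENCODE M21, which gave coordinates and 3' ends. Named genes were the called ones outside the gate, mitochondrial and ribosomal sets with at least 50 CPM on the higher day and libraries apart, up to 12 per direction, plus called list members and the highest uncalled member of each list. The members and lists were chosen with earlier results of these data known. Replicate numbers were not treated as pairs, because the labels do not say that they mark a shared source.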

Additional observations from a re-analysis of the deposited data

Results flagged for a closer look

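The day effect of Ifitm3 differed between pDCs and B cells in a test of the difference itself, by 2.57 on the log2 scale (pDCs minus B cells, adjusted p = 0.019, edgeR). Ifitm3 was 695 and 2284 CPM in day 14 pDCs and 148 and 568 CPM in day 5 pDCs, and replicate 2 was the higher library on both days in pDCs and in B cells alike. The call was lost under 5 alternatives, among them at least 3 further markers (2.43) and a mitochondrial limit of 5% (2.67), and the sign turned under stricter limits on mixed cells (-0.31).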

How the results depend on the processing

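The mean pDC share was higher on day 14 under all 14 alternatives (0.202 to 0.958 percentage points). For some of them the sign was fixed in advance. The replicate block (0.687) equals the main difference of means by arithmetic. Leaving out 1 library could not turn the sign, because both day 14 shares lay above both day 5 shares. The libraries of the days overlapped with at least 3 further markers, at 1.90% and 1.17% on day 14 and 0.838% and 1.19% on day 5. They also overlapped with microglia out of the denominator and after thinning. Over all genes, the 24 calls became 38 with at least 1 further marker, 83 with no filter on low counts, 5 with pDCs thinned to 1000 UMIs, 8 with shared 3' ends left out before the fit, and 11 to 118 when 1 library was left out; the other 11 alternatives gave counts within 1.5 times. Called interferon-stimulated genes numbered 10, 12, 1 and 3 under the same first 4 settings and 0 to 13 when 1 library was left out. Leaving out the pDCs with S100a8 or S100a9, or with 20 or more Lyz2 UMIs, the mixed-cell alternatives added after the data were seen, gave 24 and 23 calls.

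For the class by day term, pDCs against cDC1s gave 6 genes with at least 1 further marker, 5 under stricter limits on mixed cells, 1 with very deep pDCs left out, 11 with no filter and 0 to 35 when 1 library was left out. Against B cells it gave 0 with at least 3 or at least 1 further marker and at a mitochondrial limit of 5%, 39 under stricter limits, 19 with no filter and 0 to 47 when 1 library was left out; Ifitm3 was -0.31 under stricter limits.

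The replicate block gave 27 calls over all genes, 7 interferon-stimulated genes and 0 and 1 class by day genes, and lost the calls for Ifi203 (1.72) and Tpm3-rs7 (2.33). Same-numbered libraries shared little (correlation of deviations 0.078 over 2343 genes).

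None of the called genes with values of their own in the text changed sign between the days; the 6 ribosomal protein copies were not followed. Several genes not called between the days did. Cd74 was -0.20 with at least 3 further markers, -0.19 with at least 1, -0.15 under stricter limits and -0.10 when thinned. Selplg was 0.00099, 0.059 and 0.041 under the first 3 of these and 0.027 with no filter. Sec61g was 0.053 with at least 1 further marker, 0.031 with no filter, 0.025 without S100a8 or S100a9 pDCs and 0.031 without Lyz2 pDCs. Mcl1 was 0.11, 0.0013 and 0.087 under the first 3 of those. Lyz2 was -2.49, and called, under stricter limits, 0.21 with at least 1 further marker, 1.19 without very deep pDCs, 0.24 when thinned, 1.27 without S100a8 or S100a9 pDCs and 0.13 without Lyz2 pDCs. With 1 library left out in turn, the ranges were -0.59 to 0.17 for Ifnar2, -0.14 to 0.11 for Selplg, -0.34 to 0.23 for Sec61g, -0.12 to 0.0042 for Tubb5, -0.28 to 0.34 for Mcl1, -0.72 to 0.68 for Lyz2 and -0.87 to 0.36 for Ccl4. The cause of these moves was not tested.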
